A study of Caenorhabditis elegans with 6 samples.

Results

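The genes described here are the 8 calcium pumps, sodium/calcium exchangers and store release channels *mca-1*, *mca-2*, *mca-3*, *ncx-1*, *ncx-2*, *sca-1*, *itr-1* and *unc-68*, out of 19793 genes in the deposited table. They were chosen by name, as genes that move calcium out of the cytosol or release it from stores, and *mca-1* was in addition chosen by its values, because it had been seen higher in dsRBD1 mutant neural cells. The values of *mca-1* are therefore given as a description without a test. The other 7 genes were tested in a fit over all genes.

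Cells keep cytosolic calcium low at rest, and brief rises of it trigger transmitter release, muscle contraction and gene expression. Pumps of the plasma membrane, encoded by the *mca* genes, expel calcium at the cost of ATP, and sodium/calcium exchangers, encoded by the *ncx* genes, expel it at the cost of the sodium gradient. The SERCA pump SCA-1 loads calcium into the endoplasmic or sarcoplasmic reticulum. The inositol trisphosphate receptor ITR-1 and the ryanodine receptor UNC-68 release calcium from these stores.

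The data were RNA-seq libraries of neural cells of L1 animals, 3 from *adr-2 (-)*;ADR-1 dsRBD1 mutants and 3 from *adr-2 (-)*, each a biological replicate. Animals of both strains carried the deletion allele *adr-2 (ok735)*, RFP and GFP reporters driven by the *rab3* promoter, and an *unc-119* rescue. The GFP reporter had the 3' UTR of the muscle myosin gene *unc-54*. In the mutant strain, ADR-1 also carried a FLAG tag and substitutions in the KKxxK motif of its first double-stranded RNA binding domain, which prevent it from binding RNA, whereas the *adr-2 (-)* strain had wild-type ADR-1. The comparison thus addressed how RNA levels differ with and without RNA binding by ADR-1 where ADR-2 is missing, and the mutant strain differed from *adr-2 (-)* in the tag as well as the substitutions, whose effects cannot be told apart. No wild-type library was analysed here.

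Each deposited value is a read count divided by the size factor of its library, called the normalized value below. The dsRBD1 mutant libraries held 12219263 to 18382009 reads on genes and the *adr-2 (-)* libraries 5686686 to 14658470. The library of *adr-2 (-)* replicate 3 was the smallest and stood apart. Of its reads, 52.6% fell on the ribosomal RNA gene *rrn-3.1*, against 12.6% to 21.3% in the other 5 libraries, and its mean correlation with the others was 0.602 against 0.739 to 0.803. The targeted gene *adr-2* had normalized values of 1.86, 18.1 and 2.86 in dsRBD1 mutant cells (from 2, 30 and 4 reads), against 85.6, 58.0 and 143 in *adr-2 (-)* cells (from 95, 79 and 44 reads), although both strains carry the same deletion. The table does not show from which part of *adr-2* these reads came, and *adr-1* was not analysed here.

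The labelled cell type was checked against marker genes. All 13 neuronal markers had reads in every library, with summed normalized values of 33316 to 41484 in dsRBD1 mutant cells and 31775 to 37181 in *adr-2 (-)* cells. RNA of muscle was also abundant. The 9 body wall muscle markers, all of them with reads in every library, summed to 295072 to 315550 in dsRBD1 mutant cells and 207484 to 352495 in *adr-2 (-)* cells. The largest of them, *unc-54*, had 107397 to 137972 in dsRBD1 mutant cells and 65079 to 143716 in *adr-2 (-)* cells. Its 3' UTR is also that of the GFP reporter, whose part in these reads and in the muscle sums was not tested. Per kilobase, the median muscle marker had a level of 10711 and the median neuronal marker a level of 1107. Intestinal markers summed to 63769 to 91251 in dsRBD1 mutant cells and 58067 to 83380 in *adr-2 (-)* cells, and overlapped between the genotypes, as did those of neurons and body wall muscle. Sums of the 9 epidermal markers overlapped too, at 1311 to 13016 in dsRBD1 mutant cells and 1449 to 6110 in *adr-2 (-)* cells. The highest sum of each genotype was mostly *sqt-3*, at 11199 in mutant replicate 3 and 4453 in *adr-2 (-)* replicate 1. Up to 5 of the 9 epidermal markers had 0 reads in a library. The sums of the other 3 classes did not overlap. Those of pharyngeal muscle (7 markers) were 86335 to 112825 in dsRBD1 mutant cells and 65650 to 81785 in *adr-2 (-)* cells, and those of glia (6 markers) were 1022 to 1265 in dsRBD1 mutant cells and 433 to 934 in *adr-2 (-)* cells. Taken singly, only *myo-1* and *myo-2* of pharyngeal muscle and *fig-1* of glia did not overlap, while the other markers of these 2 classes did. Up to 3 of the 6 glial markers had 0 reads in a library. Germline and embryo markers (17 genes) were lower in dsRBD1 mutant cells, at 917 to 1584, than in *adr-2 (-)* cells, at 2355 to 11023, with *meg-2* at 0 reads in 5 libraries. The part of these cell types in the differences of the calcium genes was not tested. The levels below are therefore those of a mixture, in which more cells of a type and more RNA per cell cannot be told apart.

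Among the pumps of the plasma membrane, *mca-1* stood higher in dsRBD1 mutant cells by about the same amount in each library. *mca-1* (WBGene00003151, chromosome IV, 9625909 to 9634948, minus strand, WBcel235) had normalized values of 3547, 3960 and 4022 in dsRBD1 mutant cells, and of 1954, 1985 and 2183 in *adr-2 (-)* cells. The groups did not overlap, and the lowest mutant library lay well above the highest *adr-2 (-)* library. The mean was 3843 ± 258 in dsRBD1 mutant cells and 2040 ± 124 in *adr-2 (-)* cells (SD, n = 3 each), a log2 difference of 0.91 with a standard error of 0.20, or 1.88-fold. Reads behind these values numbered 3815, 6579 and 5620 in the dsRBD1 mutant libraries, and 2168, 2705 and 671 in those of *adr-2 (-)*. With each library left out in turn the log2 difference was 0.88 to 0.97. It was 0.70 when each library was divided by its body wall muscle markers and 0.78 when divided by its neuronal markers. A scaling by the pharyngeal muscle markers, whose sums did not overlap between the genotypes, was not run.

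The second pump gene, *mca-2* (WBGene00019875, chromosome IV, 2084034 to 2091919, plus strand), had normalized values of 1873, 1886 and 2327 in dsRBD1 mutant cells and 1606, 1753 and 794 in *adr-2 (-)* cells. Here too the groups did not overlap, but only *adr-2 (-)* replicate 3 lay far below the mutant libraries. The mean was 2029 ± 258 in dsRBD1 mutant cells and 1384 ± 517 in *adr-2 (-)* cells (SD, n = 3 each). The log2 difference of 0.63 with a standard error of 0.30 did not pass the test (limma, Benjamini-Hochberg adjusted p = 0.741). It was 0.27 without *adr-2 (-)* replicate 3. In that library the value came from 244 reads, whose exact 95% Poisson interval corresponds to normalized values of 697 to 900, below both other *adr-2 (-)* libraries.

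*mca-3* (WBGene00003153, chromosome IV, 3103157 to 3133149, minus strand), which had the highest level of the 3 pump genes, did not separate the genotypes. Its normalized values were 13829, 10267 and 11128 in dsRBD1 mutant cells and 9889, 12866 and 7419 in *adr-2 (-)* cells. The groups overlapped, with *adr-2 (-)* replicate 2 above both mutant replicates 2 and 3. The means were 11741 ± 1858 in dsRBD1 mutant cells and 10058 ± 2727 in *adr-2 (-)* cells (SD, n = 3 each), and the log2 difference was 0.25 (95% interval -0.31 to 0.80, adjusted p = 0.773 by limma). Without *adr-2 (-)* replicate 3 it was 0.05.

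**Figure D1:**
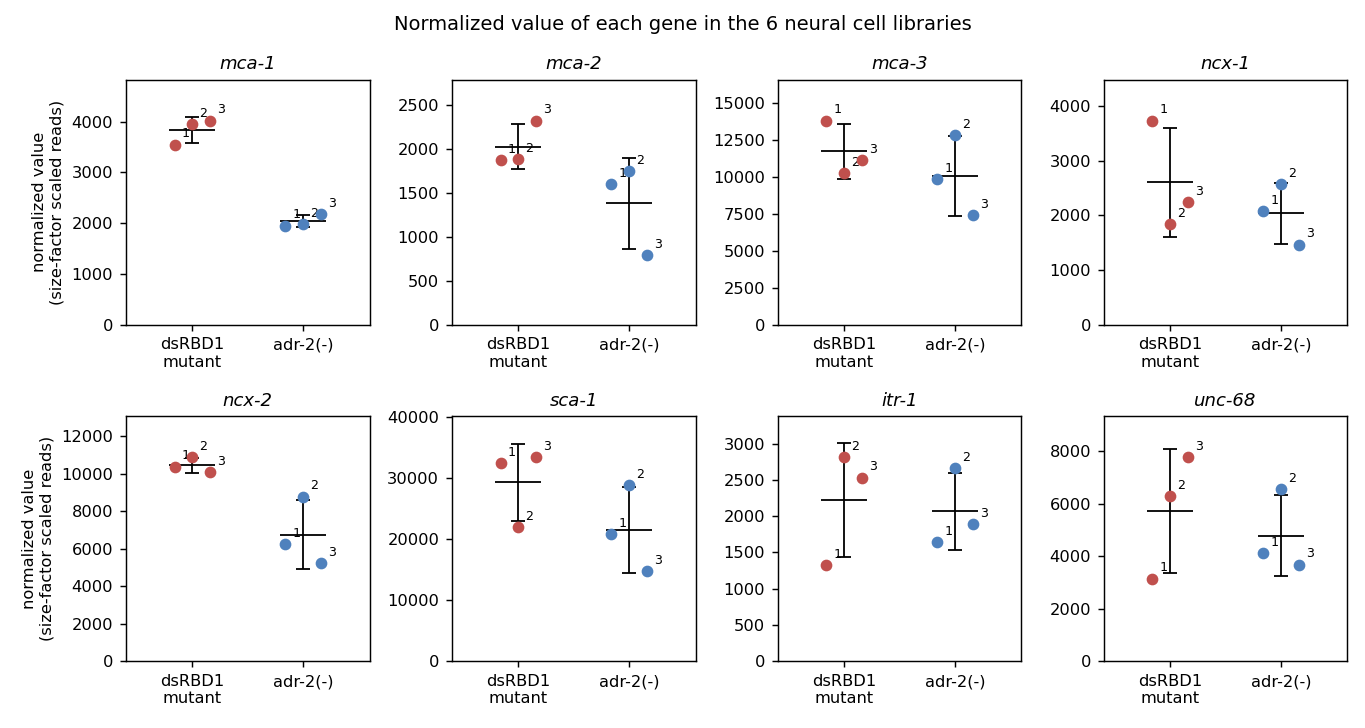
Normalized value (size-factor scaled reads, y axis from 0 in each panel) of the 8 genes in dsRBD1 mutant cells (red, left) and *adr-2 (-)* cells (blue, right). Each point is a library with its replicate number, the long bar is the mean and the whiskers are the SD of 3 libraries. The mutant points lie above every *adr-2 (-)* point for *mca-1*, *mca-2* and *ncx-2*, and the points of the other 5 genes overlap.

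Of the summed level of the 3 pump genes per kilobase, *mca-1* made up 20.5%, 26.8% and 25.05% in dsRBD1 mutant cells and 16.1%, 13.4% and 23.4% in *adr-2 (-)* cells. These shares overlapped, since *adr-2 (-)* replicate 3 exceeded mutant replicate 1. The mean share of *mca-1* was 24.1% ± 3.26 in dsRBD1 mutant cells and 17.7% ± 5.18 in *adr-2 (-)* cells (SD, n = 3 each). *mca-3* made up most of the pump level in every library, 57.8% to 66.7% in dsRBD1 mutant cells and 66.5% to 72.6% in *adr-2 (-)* cells. The ratio of *mca-1* to *mca-3* was 0.307, 0.462 and 0.433 in dsRBD1 mutant cells and 0.237, 0.185 and 0.353 in *adr-2 (-)* cells. This ratio overlapped between the genotypes as well, again through *adr-2 (-)* replicate 3.

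Of the exchangers, *ncx-2* (WBGene00003567, chromosome V, 5303689 to 5311270, plus strand) was the gene with the largest difference after *mca-1*. It had normalized values of 10382, 10877 and 10105 in dsRBD1 mutant cells and 6256, 8781 and 5234 in *adr-2 (-)* cells. The groups did not overlap, and the mutant libraries were close to each other while the *adr-2 (-)* libraries were spread. The mean was 10454 ± 391 in dsRBD1 mutant cells and 6757 ± 1826 in *adr-2 (-)* cells (SD, n = 3 each). The log2 difference was 0.66 with a standard error of 0.23, or 1.58-fold (95% interval of the log2 difference 0.15 to 1.18). It had an unadjusted p of 0.0156 but did not pass the test over all genes (limma, adjusted p = 0.722). The adjusted p was 0.209 with DESeq2 and 0.744 with edgeR on the recovered reads. Without *adr-2 (-)* replicate 3 the log2 difference was 0.50, and without *adr-2 (-)* replicate 2 it was 0.87.

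*ncx-1* (WBGene00003566, chromosome V, 20105633 to 20120673, minus strand) had normalized values of 3734, 1840 and 2241 in dsRBD1 mutant cells and 2079, 2564 and 1464 in *adr-2 (-)* cells. Mutant replicate 1 was the highest, and the other mutant libraries lay among those of *adr-2 (-)* cells. The means were 2605 ± 998 in dsRBD1 mutant cells and 2036 ± 552 in *adr-2 (-)* cells (SD, n = 3 each), with a log2 difference of 0.33 (95% interval -0.32 to 0.97, limma adjusted p = 0.768). Without mutant replicate 1 it was 0.03. The ratio of *ncx-2* to *ncx-1* per kilobase was 2.09, 4.44 and 3.38 in dsRBD1 mutant cells and 2.26, 2.57 and 2.68 in *adr-2 (-)* cells. *ncx-2* was thus the higher exchanger gene in all 6 libraries, by ratios that overlapped between genotypes.

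The gene of the SERCA pump, *sca-1* (WBGene00004736, chromosome III, 10811906 to 10816850, minus strand), had normalized values of 32409, 22001 and 33379 in dsRBD1 mutant cells and 20753, 28827 and 14780 in *adr-2 (-)* cells. The groups overlapped, with *adr-2 (-)* replicate 2 above mutant replicate 2. The mean was 29263 ± 6308 in dsRBD1 mutant cells and 21453 ± 7049 in *adr-2 (-)* cells (SD, n = 3 each), and the log2 difference of 0.48 (95% interval -0.21 to 1.16) did not pass the test (limma, adjusted p = 0.741). It was 0.23 without *adr-2 (-)* replicate 3. The summed body wall muscle markers were also lowest in that library, as were 4 of the 9 markers taken singly. The sums of neuronal markers (31775) and intestinal markers (58067) were lowest there too. Among the *adr-2 (-)* libraries, *sca-1* and 9 of the 9 body wall muscle markers were highest in replicate 2. The neuronal sum (37181) and the intestinal sum (83380) were likewise highest in replicate 2. With each library divided by its body wall muscle markers the log2 difference of *sca-1* was 0.27, and by its neuronal markers 0.34. The part of muscle RNA in it was not tested.

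The release channels had the smallest differences. *itr-1* (WBGene00002173, chromosome IV, 7675174 to 7696930, plus strand), which in *C. elegans* sets the rhythm of the defecation cycle in the intestine, had normalized values of 1324, 2811 and 2530 in dsRBD1 mutant cells and 1644, 2666 and 1887 in *adr-2 (-)* cells. Mutant replicate 1 was the lowest of all libraries and mutant replicate 2 the highest. The means were 2222 ± 790 in dsRBD1 mutant cells and 2065 ± 534 in *adr-2 (-)* cells (SD, n = 3 each), with a log2 difference of 0.06 (95% interval -0.60 to 0.72, limma adjusted p = 0.964). Its sign was not fixed: it was 0.40 without mutant replicate 1 and -0.14 without mutant replicate 2.

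*unc-68* (WBGene00006801, chromosome V, 6901681 to 6929038, minus strand), needed for full contraction of body wall muscle and also expressed in neurons, had normalized values of 3149, 6288 and 7774 in dsRBD1 mutant cells and 4134, 6551 and 3682 in *adr-2 (-)* cells. Mutant replicate 1 was again the lowest library, and mutant replicate 3 was the highest. The means were 5737 ± 2361 in dsRBD1 mutant cells and 4789 ± 1542 in *adr-2 (-)* cells (SD, n = 3 each), and the log2 difference was 0.21 (95% interval -0.51 to 0.93, limma adjusted p = 0.856). It was 0.59 without mutant replicate 1 and -0.06 without mutant replicate 3. The ratio of *unc-68* to *itr-1* per kilobase stayed within 1.27 to 1.74 in dsRBD1 mutant cells and 1.11 to 1.43 in *adr-2 (-)* cells, and both release channels were lowest in the same library, mutant replicate 1.

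Of the 7 genes other than *mca-1*, 7 had a log2 difference above 0, among them *itr-1* at 0.06, with a median of 0.33. The 13705 genes tested had a median of 0.09, and 54.5% of them were above 0. The median of the 7 genes moved with single libraries. It was 0.11 without *adr-2 (-)* replicate 3, where all genes had a median of -0.06, 0.51 without *adr-2 (-)* replicate 2 and 0.54 without mutant replicate 2. With library totals without *rrn* genes as the scale it was 0.19, with 6 of 7 above 0, and the median of all genes was -0.05. None of the 7 was called by limma at an adjusted p under 0.05 and an absolute log2 difference above 0.5, and the same was true of all genes (0% called, 872 genes at an unadjusted p under 0.05). edgeR likewise called 0 genes (898 at an unadjusted p under 0.05). DESeq2 called 317 genes, and its calls of higher genes made up 0.311% of those it tested, with 0 of the 7 members other than *mca-1* among them.

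At an unadjusted p under 0.05 and a log2 difference above 0.5, limma gave 1 of the 7, *ncx-2*, against 3.35% of all genes. In the opposite direction it gave 0 of the 7, against 2.88% of all genes. Every mutant library lay above every *adr-2 (-)* library for *mca-2* and *ncx-2*, 2 of the 7, where this held for 6.80% of all genes. Every mutant library lay below every *adr-2 (-)* library for 0 of the 7, against 6.92% of all genes. For *mca-1* the same pattern was part of its choice. The adjusted p of the 7 genes lay between 0.722 and 0.964, and 3 libraries per genotype left intervals wide enough to hold a change of 1.5-fold or more for each.

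**Figure D2:**
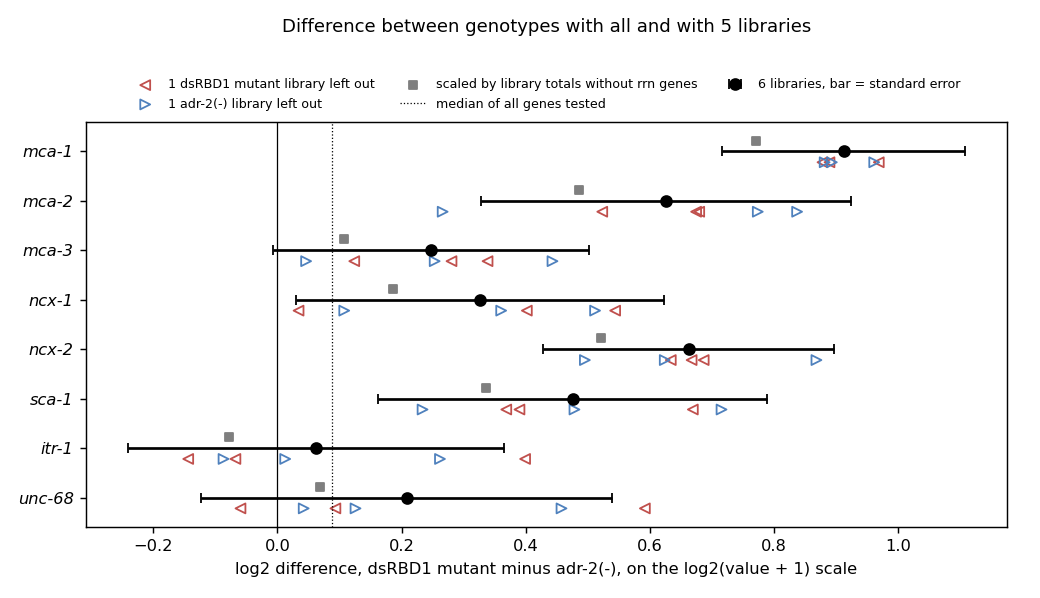
Log2 difference of each gene, dsRBD1 mutant minus *adr-2 (-)*, on the log2(value + 1) scale (x axis). Black points with bars are the fit of 6 libraries with its standard error, open triangles leave out 1 dsRBD1 mutant library (red) or 1 *adr-2 (-)* library (blue), grey squares use library totals without *rrn* genes as the scale, and the dotted line is the median of all genes tested. The triangles of *mca-1* stay between 0.88 and 0.97, and those of *itr-1* and *unc-68* fall on both sides of 0.

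Single libraries stood out for most of these genes. *adr-2 (-)* replicate 3 was the lowest library for 5 genes, *mca-2*, *mca-3*, *ncx-1*, *ncx-2* and *sca-1*, and mutant replicate 1 for *itr-1* and *unc-68*. The share of all genes that were lowest in each library was not counted. Genes in general also had medians below 0 in *adr-2 (-)* replicate 3, as given below by length class. Set against the mean of the other *adr-2 (-)* libraries on the log2 scale, replicate 3 differed by -1.08 for *mca-2*, -0.73 for *sca-1*, -0.50 for both *ncx-2* and *unc-68*, and 0.15 for *mca-1*. *mca-1* was the only one of the 8 genes that was not lower in this library. Set against the other mutant libraries, replicate 1 differed by 0.88 for *ncx-1*, -1.01 for *itr-1* and -1.15 for *unc-68*.

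The last 2 of these genes have the longest transcripts of the 8, with merged exons of 9187 bases for *itr-1* and 16197 bases for *unc-68*. Over the 97 genes tested with merged exons of at least 8 kb, the same difference of mutant replicate 1 had a median of -0.61, against -0.11 for the 3609 genes of 2 to 8 kb and -0.00 for the 9994 shorter genes. Long genes as a class were thus low in mutant replicate 1. In *adr-2 (-)* replicate 3 the 3 length classes had medians of -0.23, -0.28 and -0.22 in the same order. The part of this length pattern in the low values of *itr-1* and *unc-68* was not tested.

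**Figure D3:**
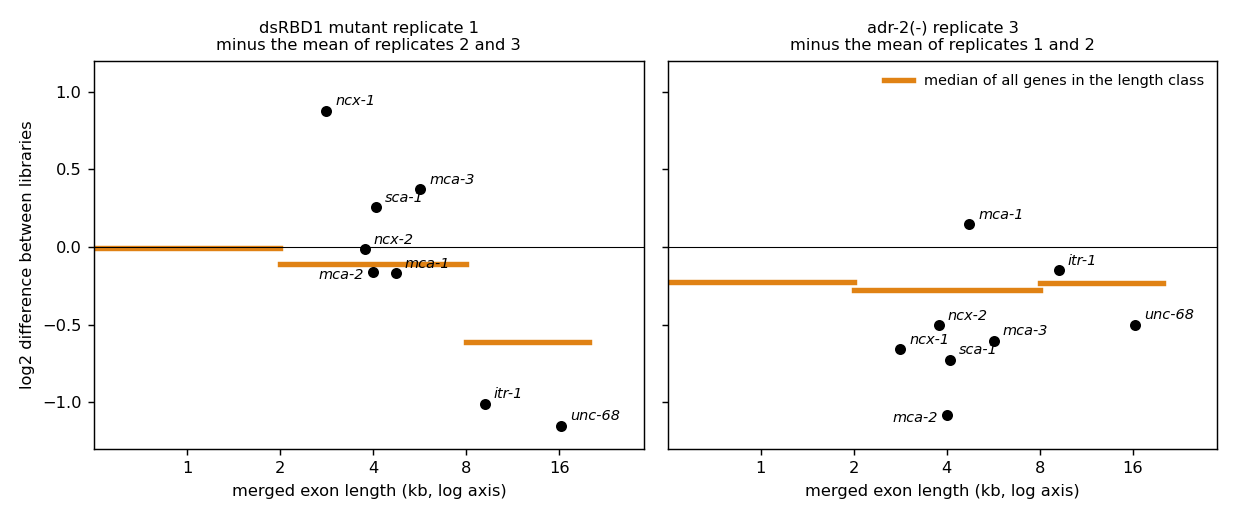
Log2 difference of 1 library from the mean of the other 2 libraries of its genotype (y axis) against merged exon length (x axis, log scale), for mutant replicate 1 (left) and *adr-2 (-)* replicate 3 (right). Points are the 8 genes and orange lines the medians of all genes tested with merged exons under 2 kb, of 2 to 8 kb and of 8 kb or more. *itr-1* and *unc-68* lie at -1.01 and -1.15 in the left panel, where the median of long genes is -0.61, and 7 of the 8 genes lie below 0 in the right panel.

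Levels of different genes were set side by side per kilobase of merged exons. *sca-1* was the highest, with a lowest, median and highest level over the 6 libraries of 3615, 6217 and 8165. It was followed by *ncx-2* (1392, 2511 and 2893) and *mca-3* (1309, 1887 and 2440). Pumps and exchangers thus held the upper places of the order. The middle places went to *ncx-1* (519, 766 and 1323), *mca-1* (413, 606 and 851) and *mca-2* (199, 454 and 582). The release channels were the lowest, *unc-68* with 194, 322 and 480 and *itr-1* with 144, 240 and 306. They also have the longest merged exons of these genes, and the part of length in this order was not tested.

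Only *sca-1* and *ncx-2* were neighbours in this order whose ranges did not overlap, with a ratio of 1.86 to 3.05 over the libraries. Within libraries, *mca-3* exceeded *ncx-1* and *unc-68* exceeded *itr-1* in all 6 as well. The order of *ncx-2* over *mca-3*, *mca-1* over *mca-2* and *mca-2* over *unc-68* held in 5 of 6 libraries each, and that of *ncx-1* over *mca-1* in 4. Per kilobase of the longest coding sequence, *mca-3* (mean level 2944) and *ncx-2* (mean level 2942) changed places and the other 6 genes kept theirs. For scale, the mean level per kilobase of the muscle myosin *unc-54* was 18143, with any reads of the GFP reporter included. That of the synaptic vesicle gene *rab-3* was 1782. The ratio of *sca-1* to *unc-68* was 40.8, 13.9 and 17.01 in dsRBD1 mutant cells and 19.9, 17.4 and 15.9 in *adr-2 (-)* cells, with the low *unc-68* of mutant replicate 1 setting the highest ratio.

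**Figure D4:**
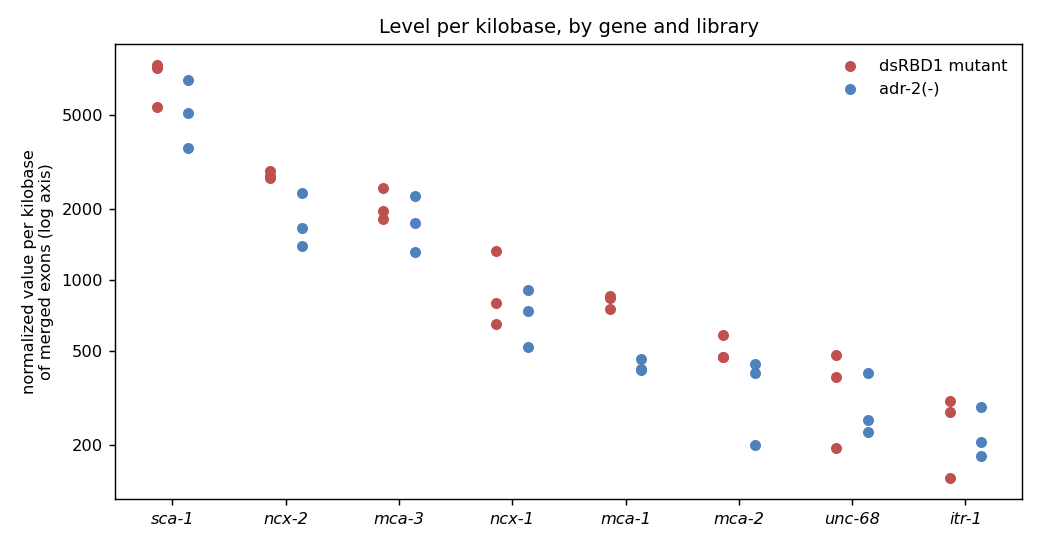
Normalized value per kilobase of merged exons (y axis, log scale) of the 8 genes in order of their mean level, with 1 point per library, dsRBD1 mutant cells in red and *adr-2 (-)* cells in blue. *sca-1* lies above all other genes at 3615 to 8165, and *unc-68* and *itr-1* are at the low end.

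Some of the genes share exon bases with a gene on the opposite strand. *sca-1* shares 306 bases with the antisense RNA K11D9.5, which had normalized values of 19.5, 16.9 and 10.7 in dsRBD1 mutant cells and 0, 9.54 and 0 in *adr-2 (-)* cells, far below those of *sca-1*. *ncx-1* shares 53 bases with *sec-23*, a gene of vesicle coat assembly, *mca-2* shares 53 bases with C23H5.11, and *itr-1* shares 131 bases with the noncoding RNA F33D4.12. The reads were stranded, but whether the counting used the strand is not given in the sources used here.

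The pattern of *mca-1* over the 6 libraries was compared with that of every gene of a mean value of at least 100, as the root mean square difference of log2(value + 1) after each gene was centred on its own mean. The nearest of 8202 genes were K03E5.2 (0.105), F13D12.10 (0.118), *nrx-1* (0.147), D1005.1 (0.149) and *nadk-1* (0.153), against a median distance of 0.66. For *nrx-1*, the gene of the synaptic adhesion protein neurexin, the normalized values were 1124, 976 and 1101 in dsRBD1 mutant cells and 656, 548 and 605 in *adr-2 (-)* cells. Like those of *mca-1*, they were higher in each mutant library, and this choice of genes fixes that direction. The nearest of the other 7 genes was *ncx-2*, at a distance of 0.29 and rank 187, followed by *mca-2* and *sca-1* at 0.44 each. The remaining ones lay between 0.47 for *mca-3* and 0.56 for *itr-1* and *unc-68*.

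Other genes of calcium handling were described from a list of 39, of which 38 were in the table and 36 passed the filter of a mean value of at least 10. Of these 36, 27 had a log2 difference above 0 and 9 below, with a median of 0.31, beside 54.5% above 0 and a median of 0.09 over all genes tested. With library totals without *rrn* genes as the scale the median of the 36 was 0.17 and that of all genes -0.05, and without *adr-2 (-)* replicate 3 they were 0.21 and -0.06. None of them was called by limma, edgeR or DESeq2. Their adjusted p by limma lay between 0.708 and 0.997. At an unadjusted p under 0.05 and a log2 difference above 0.5, limma gave 2 of the 36 higher (3.35% of all genes) and 0 lower (2.88% of all genes).

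These 2 genes were *plc-3* and *unc-2*. *plc-3*, a phospholipase C that makes inositol trisphosphate, the ligand of ITR-1, had normalized values of 656, 577 and 621 in dsRBD1 mutant cells and 284, 412 and 247 in *adr-2 (-)* cells. The groups did not overlap, and the log2 difference was 1.01 with a standard error of 0.33 (limma, adjusted p = 0.708). *unc-2*, the pore-forming subunit of the presynaptic voltage-gated calcium channel, had normalized values of 2576, 2634 and 3618 in dsRBD1 mutant cells and 1991, 2436 and 1447 in *adr-2 (-)* cells. These did not overlap either, with mutant replicate 1 just above *adr-2 (-)* replicate 2, and the log2 difference was 0.60 with a standard error of 0.25 (limma, adjusted p = 0.741).

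Another gene whose mutant libraries all lay higher was *ncx-8*, of the sodium/calcium exchanger family. It had 101, 159 and 132 in dsRBD1 mutant cells and 93.7, 98.3 and 22.8 in *adr-2 (-)* cells, with a log2 difference of 1.10 and a standard error of 0.92 (limma, adjusted p = 0.759). The value of 22.8 came from 7 reads, and mutant replicate 1 lay just above *adr-2 (-)* replicate 2. In total 3 of the 36 genes lay higher in this way (6.80% of all genes). One gene, *mcu-1*, the pore of the mitochondrial calcium uniporter, lay lower in each mutant library (6.92% of all genes). *mcu-1* had 275, 332 and 278 in dsRBD1 mutant cells and 369, 354 and 511 in *adr-2 (-)* cells, with a log2 difference of -0.46 and a standard error of 0.36 (limma, adjusted p = 0.750).

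By role, both genes of store-operated entry, the calcium sensor of the store *stim-1* and the membrane channel *orai-1*, had log2 differences above 0, 0.43 and 0.61, and did not pass the test. Of the 8 genes that make or remove inositol trisphosphate 6 were above 0, with a median of 0.29. Of the 7 calcium sensors and their targets 6 were above 0, with a median of 0.25, among them *cmd-1* (calmodulin) at 0.25 and *tax-6* (calcineurin) at 0.40. The 4 calcium-binding or junction genes of the reticulum ranged between -0.01 for *csq-1* (calsequestrin) and 0.49 for *jph-1* (junctophilin). Of the 3 genes of mitochondrial uptake 1 was above 0. Of the 5 voltage-gated channel subunits 4 were above 0, with a median of 0.33, which included *egl-19*, the L-type channel of muscle and neurons, at 0.33. The 7 other calcium pumps and exchangers tested also had a median of 0.33, with 5 above 0. Their range was -0.26 for *ncx-4* to 2.49 for *ncx-6*. For *ncx-6* the standard error was 1.76, with 0 reads in *adr-2 (-)* replicate 3.

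**Figure D5:**
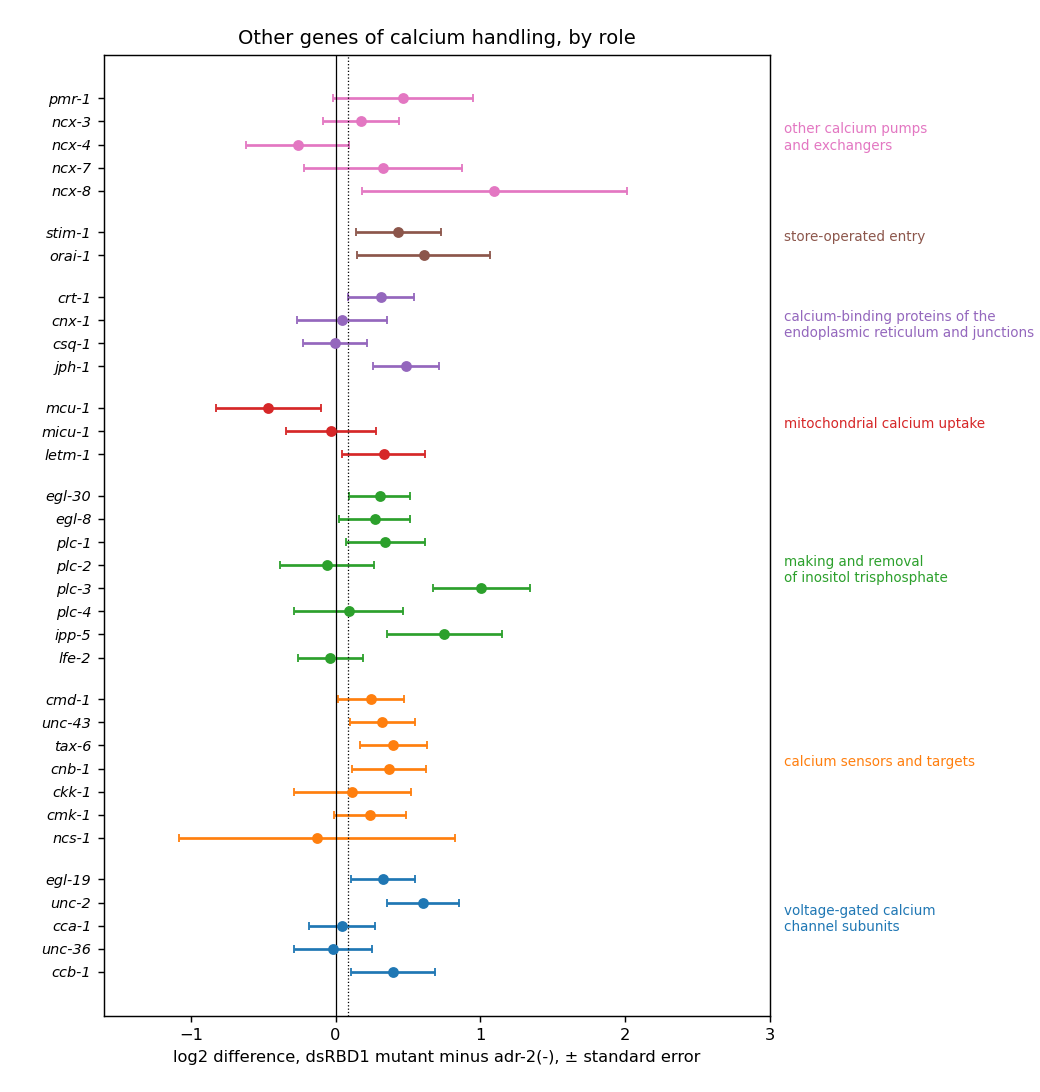
Log2 difference, dsRBD1 mutant minus *adr-2 (-)*, with its standard error (x axis) for 34 of the 36 other calcium genes tested, grouped by role. *ncx-5* and *ncx-6*, whose standard errors exceeded 1, are not drawn, the solid line is 0 and the dotted line the median of all genes tested. Most points lie right of 0, among them *plc-3* at 1.01, while *mcu-1* lies left of 0 at -0.46.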

How the data were processed

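RNA-seq of poly(A) RNA was performed on isolated L1 neural cells, in 3 libraries of each genotype that the authors describe as independent biological replicates. Per the study's methods, the authors aligned 75 bp single-end stranded reads to WS275 with STAR (version 2.7.8a in the submitters' processing notes), retained reads with a unique alignment, summed these over genes with featureCounts and scaled the counts with DESeq2. The deposited signal is the read count of a gene divided by 1 size factor per library. The authors also deposited log2 fold changes, p-values and adjusted p-values of their own comparison, which were not used. All values (100%) were whole multiples of the value of 1 read (tolerance 0.01 reads), which gave back the reads. One read was worth 3.25 in *adr-2 (-)* replicate 3 and 0.602 to 0.930 in the other libraries. The limit that a count of 0 allows, 3 reads, was 9.76 in that replicate and at most 2.79 in the others. This limit and the Poisson interval of *mca-2* cover counting error only. The 95% intervals of log2 differences were computed from the standard errors of the limma fit.

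Groups came from the genotype labels, and 0 columns of values were unmatched. log2(value + 1) was fitted with limma 3.58.1 (mean-variance trend, R 4.3.3) for the 13705 genes that averaged 10 or more, and p-values were adjusted by Benjamini-Hochberg, so fold changes are on the log2(value + 1) scale. A gene was called at an adjusted p under 0.05 and an absolute log2 difference above 0.5. edgeR 4.0.16 (quasi-likelihood) and DESeq2 1.42.0 (Wald test) took the recovered reads as counts. The limma and edgeR fits were tested on simulated data. Gene lengths and coordinates are of WBcel235, the assembly of WS275, and merged exons are the union of all exons of a gene. Alternatives were a pseudocount of 0.5, other filters and scalings, a replicate block, and omission of single libraries. Division by marker genes and coding lengths were added after seeing the data.

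The genes named are the 8 genes, the listed calcium genes past an unadjusted p of 0.05 with an absolute log2 difference above 0.5 or with libraries that do not overlap, the 5 genes nearest to *mca-1*, *rrn-3.1* and markers. Examples given by role and *adr-2* are further ones. The genes and lists were chosen with earlier results of these data known. One listed gene, *rcan-1*, was not analysed here.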

Additional observations from a re-analysis of the deposited data

How the results depend on the processing

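The log2 difference of *mca-1*, whose direction was part of its choice, was 0.77 with library totals without *rrn* genes as the scale, against 0.91 with the deposited scaling. It was 0.70 when divided by the muscle markers and 0.78 when divided by the neuronal markers. The muscle markers used here were those of body wall muscle only. The scaling by library totals moved the median of all genes by -0.13, to -0.05. With each library left out *mca-1* ranged between 0.88 and 0.97. Of the 112 values of the other 7 genes under alternatives none was called, and 8 were below 0. These were *itr-1* at -0.078 with library totals, -0.15 with muscle markers and -0.073 with neuronal markers, *unc-68* at -0.0020 with muscle markers, and values with 1 library left out, where *itr-1* ranged between -0.14 and 0.40 and *unc-68* between -0.060 and 0.59. Over all genes 0 were called by limma. The count was 3 with no filter on low values, 317 with DESeq2 and 0 to 11 with 1 library left out, the 11 without *adr-2 (-)* replicate 2. With the replicate block 21 genes were called. Deviations of same-numbered libraries from their group means had correlations of -0.09, 0.04 and -0.06, against -0.04 to 0.15 for the other pairs. With 3 libraries per genotype, these correlations cannot show whether same-numbered libraries were prepared together, and the labels do not say so. The median of the 7 genes was 0.12 with muscle markers and 0.19 with neuronal markers, against 0.33. The listed calcium genes had 0 calls under the 14 alternatives run on them, which did not include the marker scalings. The fewest reads behind a value were 244, for *mca-2* in *adr-2 (-)* replicate 3 (counting error of 6.40%). The marker scalings were chosen after seeing the data.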
